A study of Homo sapiens with 36 samples.

Results

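The genes described are 10 cytosolic and mitochondrial heat shock protein genes in human embryonic stem cells on their way to cardiomyocytes. They are HSF1, HSPA1A, HSPA1B, HSPA8, HSP90AA1, HSPB1, DNAJB1, HSPH1, HSPD1 and HSPE1. They were looked up by gene symbol, and all 10 were found once each among the 58721 gene rows of the count table. RNA was sequenced from H1 cells, an established human embryonic stem cell line, labelled wild type or PERK KO. PERK, encoded by EIF2AK3, sits in the membrane of the endoplasmic reticulum (ER) and, when unfolded proteins build up there, slows translation. Each genotype was sampled at days 0, 1, 2, 3, 5 and 10 of a cardiac differentiation that used the WNT activator CHIR99021 early and the WNT inhibitor IWP2 later. These are the days on the sample labels, which were used here, whereas the series' design text names collection at days 0, 2 and 6. That gives 12 groups of 3 libraries, 36 libraries in all. Both genotypes went through the same protocol, day 0 being the undifferentiated cells of each. The sources used here do not say how PERK was targeted, how many clones the PERK KO cells stand for or whether replicates were separate cultures, so p-values measure only the spread between these samples.

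Heat shock proteins are chaperones that hold, fold or refold other proteins. In the cytosol the HSP70 proteins bind unfolded stretches, J-domain partners such as DNAJB1 bring them clients, HSP110 proteins such as HSPH1 exchange their nucleotide, HSP90 finishes many signalling proteins, and small heat shock proteins such as HSPB1 keep unfolded proteins from clumping. In the mitochondrial matrix HSPD1 (HSP60) forms a folding chamber and HSPE1 (HSP10) its lid. HSF1 is the transcription factor that raises the inducible members after heat or other stress, and heart muscle is known for high levels of small heat shock proteins.

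The libraries held 14002137 to 25860481 counts in all, and every member had at least 250 counts in every library. The transcript of EIF2AK3 itself was present in both genotypes, at 10.1 to 28.0 CPM (counts-per-million, scaled between libraries) in wild type and 11.9 to 22.9 CPM in PERK KO. It was not called different at any day (log2 fold changes from -0.37 to 0.45, smallest edgeR adjusted p = 0.127), so counts per gene do not check the label. Markers of cell type also differed between the genotypes at day 10. TNNT2, cardiac troponin T, lay at 1736, 1742 and 2031 CPM in wild type against 28.8, 9.22 and 33.4 CPM in PERK KO. The 8 pluripotent stem cell markers summed to 2166 to 2245 CPM in PERK KO and 650 to 792 CPM in wild type. Summed fibroblast, endoderm and liver, and endothelial markers were lower in PERK KO. The fibroblast markers summed to 189 to 273 CPM in PERK KO and 3547 to 5174 CPM in wild type. PAX6, a neural factor, lay at 101, 115 and 102 CPM in PERK KO at day 10 and at 0.13 CPM or less in wild type. The 8 neural markers summed to 856 to 1024 CPM in PERK KO and 570 to 667 CPM in wild type at that day, with 5 called higher, 1 lower (NES) and 2 not called. In such bulk samples fewer cells of a type and less RNA per cell cannot be told apart. Libraries that stood apart from their groups were PERK KO day 0 replicate 2 (its counts gave a chi-square of 163 and 151 per degree of freedom when set against the other replicates), wild-type day 2 replicate 3 (82.0 and 76.7) and wild-type day 3 replicate 3 (95.9 and 34.5). Wild-type day 10 replicate 2 stood out for the members themselves, as described with the HSP70 genes.

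By day 10 the members had split into 5 that were lower and 5 that were higher in PERK KO. HSPB1, HSPA1B, HSPA1A, HSF1 and DNAJB1 were lower, by 3.67 ± 0.27, 2.74 ± 0.43, 1.78 ± 0.37, 1.53 ± 0.16 and 1.03 ± 0.23 on the log2 scale (approximate SE, 3 libraries against 3). HSP90AA1, HSPH1, HSPD1, HSPA8 and HSPE1 were higher, with log2 fold changes of 3.09 ± 0.41, 1.78 ± 0.33, 1.18 ± 0.23, 0.96 ± 0.16 and 0.91 ± 0.16. A gene counts as called when its p from edgeR's quasi-likelihood test, adjusted over all 19772 genes tested, is under 0.05. The largest of the 10 adjusted p-values at day 10 was 2.36e-04. At that day 33.2% of all tested genes were called higher and 34% lower in PERK KO, so the full set of called members stands against a background in which most tested genes were called. Without wild-type day 10 replicate 2 all 10 calls held, with HSPA1A at -0.47, HSPA1B at -1.16 and DNAJB1 at -0.40. For HSPA1A the genotypes overlapped at day 10, at 170.8, 733.8 and 104.9 CPM in wild type and 105.3, 105.0 and 84.1 CPM in PERK KO.

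**Figure D1:**
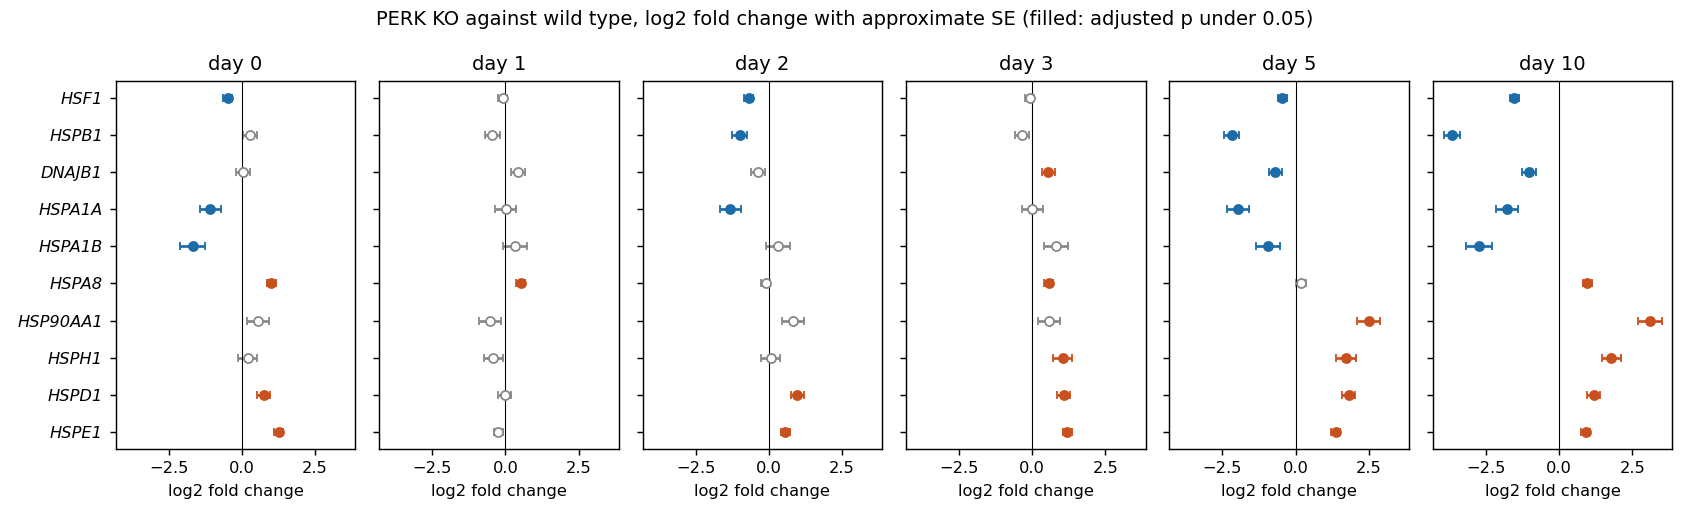
Log2 fold change of PERK KO against wild type (horizontal axis) for the 10 members (vertical axis) in 1 panel per day. Points are edgeR estimates from 3 libraries a group, bars are approximate SEs, orange marks members called higher, blue members called lower, and open points were not called. At days 5 and 10 HSF1, HSPB1, DNAJB1, HSPA1A and HSPA1B lie left of 0 and HSP90AA1, HSPH1, HSPD1 and HSPE1 right of it.

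The earlier days had fewer calls. At day 0, before differentiation, 3 members were higher in PERK KO (HSPE1, HSPA8, HSPD1) and 3 lower (HSPA1B, HSPA1A, HSF1), where 12.5% of all genes were higher and 8.64% lower. With only the 6 day 0 libraries in the fit, HSPA1B alone kept its call. Leaving out wild-type day 0 replicate 2 or 3 also cost calls, with 3 members called in either case. At day 1 HSPA8 was the single call, higher by 0.52 ± 0.16 (edgeR adjusted p = 0.0193), against 8.11% of genes higher and 7.72% lower. That call was lost without wild-type day 1 replicate 2 or 3 and without PERK KO day 1 replicate 2 or 3 (0.47 to 0.51, adjusted p = 0.059 to 0.0899), and 6 members were called in a fit of the 6 day 1 libraries alone. At day 2 HSPD1 and HSPE1 were higher and HSPA1A, HSPB1 and HSF1 lower, where 20.9% of genes were higher and 21.8% lower. The summed counts of HSPA1A and its near-identical copy HSPA1B were not called at that day (-0.44, edgeR adjusted p = 0.369). At day 3 HSPE1, HSPD1, HSPH1, HSPA8 and DNAJB1 were higher and none was lower, with 21.9% and 23.2% of genes called in those directions. At day 5, 4 members were higher (HSP90AA1, HSPD1, HSPH1, HSPE1) and 5 lower (HSPB1, HSPA1A, HSF1, HSPA1B and DNAJB1), with 28.6% and 30.5% of genes called. The HSPA1B call at day 5 (edgeR adjusted p = 0.0495) was lost whichever of the 6 libraries was left out, and the DNAJB1 call at day 3 (adjusted p = 0.0467) in 5 of 6 cases. Without wild-type day 3 replicate 3 HSPH1 was not called at day 3 (0.71, adjusted p = 0.0747). The median log2 fold change over the 10 members lay between -0.14 and 0.57 at these 6 days, and that over all genes between -0.03 and 0.03.

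**Figure D2:**
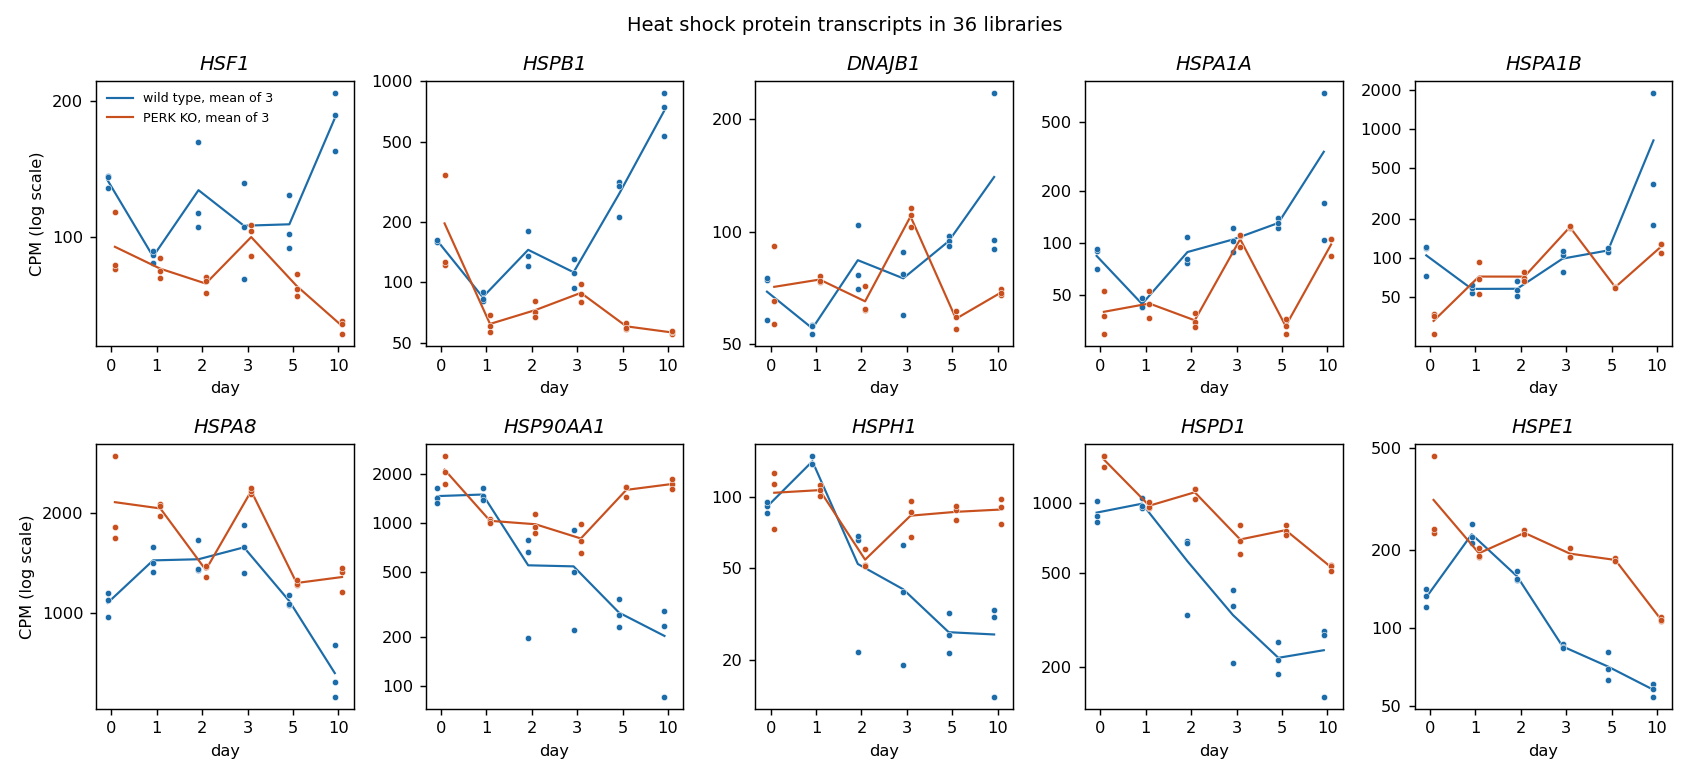
CPM (log scale, vertical axis) of each member by day of differentiation (horizontal axis, days evenly spaced), with wild type in blue and PERK KO in orange. Points are single libraries and lines join the means of 3. In the wild type HSPB1 climbs from 161 to 717 CPM between days 0 and 10 while HSP90AA1 drops from 1464 to 204, and in PERK KO HSPA1A, HSPA1B, HSPA8 and DNAJB1 have their highest mean at day 3.

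Most of the members carry a short DNA motif near their start. The heat shock element, to which HSF1 trimers bind, is built of inverted GAA units, and its simplest form was searched on both strands of RefSeq windows from 250 bases before to 50 bases after each gene start (GRCh38.p14). The motif of 2 units is GAANNTTC or TTCNNGAA, and the motif of 3 units GAANNTTCNNGAA or TTCNNGAANNTTC, which holds the first. Of 35116 windows of all genes, 13.5% held the 2-unit motif and 0.49% the 3-unit motif. These shares are per window, whereas a member was counted if any of its windows matched (13 windows for 9 members). The member counts and the shares are therefore not in the same unit. Of the 9 members whose windows were examined, 7 held the 2-unit motif (HSPA1A, HSPA1B, HSPA8, HSP90AA1, HSPB1, DNAJB1 and HSPD1). The 3-unit motif was held by 3 of these (HSPA8, HSP90AA1 and HSPD1). No match lay in the windows of HSPH1 and HSPE1. HSF1 was left out of this examination of member windows, so whether it holds a match was not tested. The matches below are shown because the members that carry them went in opposite directions. DNAJB1 and HSP90AA1 also held further matches of the 2-unit motif, which are not shown. Each line gives 30 bases 5′ to 3′ on the gene's strand, with the match in capitals, and a match is a description and not a shown binding site.
HSPA1A, chr6:31815426-31815455, plus strand: cgaaaaccctgGAATATTCccgacctggca
HSPA1B, chr6:31827622-31827651, plus strand: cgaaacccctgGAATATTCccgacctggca
HSPB1, chr7:76302480-76302509, plus strand: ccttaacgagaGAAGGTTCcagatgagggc
DNAJB1, chr19:14518456-14518485, minus strand: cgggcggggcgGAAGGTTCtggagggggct
HSPA8, chr11:123062345-123062374, minus strand: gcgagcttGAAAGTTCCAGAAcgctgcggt
HSPA8, chr11:123062170-123062199, minus strand: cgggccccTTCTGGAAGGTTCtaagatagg
HSP90AA1, chr14:102087111-102087140, minus strand: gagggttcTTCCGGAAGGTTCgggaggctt
HSPD1, chr2:197500061-197500090, minus strand: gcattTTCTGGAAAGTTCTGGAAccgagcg
The sites start 106, 105, 182, 77, 230, 55, 88 and 245 bases before the starts of their genes, in the order shown. The HSPD1 site is the longest run found, 18 bases of alternating units. It lies within the annotated spans of both HSPD1 and HSPE1. The nearest of the 30 bases shown is 289 bases from the HSPE1 start. The distance of 245 bases given for the site is to 1 of the 2 HSPD1 starts examined. The other start lies upstream of the site. At day 10 the 7 genes with a match comprised 4 that were lower in PERK KO (HSPA1A, HSPA1B, HSPB1, DNAJB1) and 3 that were higher (HSPA8, HSP90AA1, HSPD1). The lower 4 held the 2-unit motif alone and the higher 3 held the 3-unit motif, a description of 7 genes that carries no test.

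HSF1 (ENSG00000185122.10), the transcription factor, separated the genotypes at both ends of the course. Its libraries in wild type lay at 128, 136 and 136 CPM at day 0 and at 155, 187 and 208 CPM at day 10. In PERK KO they lay at 85.0, 114 and 86.9 CPM at day 0 and at 65.3, 64.3 and 61.0 CPM at day 10. The genotypes did not overlap at either day, and PERK KO was the lower. The HSF1 call at day 0 was lost in 3 of 6 cases when 1 library was left out (edgeR adjusted p up to 0.0887), while that at day 10 held in all. From day 0 to day 10 HSF1 rose by 0.46 ± 0.15 in wild type (edgeR adjusted p = 0.00981) and fell by 0.58 ± 0.16 in PERK KO (adjusted p = 0.00185). The difference between these changes, the genotype-by-day interaction, was -1.04 ± 0.22 (adjusted p = 1.94e-04). With the GC offset described below these values were 0.24 (adjusted p = 0.00277), -0.26 (adjusted p = 0.00163) and -0.50 (adjusted p = 7e-05), all still called. HSF1 overlaps DGAT1 on the opposite strand, and the sources used here do not say whether counting used strand.

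HSPA8 (ENSG00000109971.13, GRCh38 chromosome 11, 123057489 to 123063230, minus strand) encodes the constitutive HSP70 of the cytosol and had the highest level per length of the 10 members. In TPM (transcripts-per-million, the authors' length-scaled unit) it averaged 1307 over the 36 libraries. At day 0 its libraries held 973, 1093 and 1148 CPM in wild type and 1679, 2970 and 1811 CPM in PERK KO. All PERK KO libraries were above all wild-type ones, and the highest was the replicate that stood apart. PERK KO was higher by 1.01 ± 0.16 (edgeR adjusted p = 2.77e-05), and by 0.70 without that replicate. At day 10 the wild type held 559, 799 and 617 CPM and PERK KO 1326, 1366 and 1153 CPM. HSPA8 had fallen in both genotypes since day 0, by 0.70 ± 0.16 in wild type and 0.75 ± 0.16 in PERK KO, and the interaction at day 10 was -0.05 ± 0.22 (adjusted p = 0.889).

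HSPA1A (ENSG00000204389.9, GRCh38 chromosome 6, 31815464 to 31817946, plus strand) and HSPA1B (ENSG00000204388.6, 31827735 to 31830255) encode the stress-inducible HSP70. They are near-identical copies: 67.1% of the 150-base windows of the HSPA1A transcript occur in that of HSPA1B. RSEM therefore split reads between them, with fractional counts in all 36 libraries, and the split is uncertain, so their sum is given as well. At day 0 the sum was 144, 209 and 216 CPM in wild type and 66.7, 78.6 and 73.5 CPM in PERK KO. PERK KO was lower without overlap, by 1.38 ± 0.39 on the log2 scale (edgeR adjusted p = 0.0112). HSPA1A alone lost its call at day 0 when wild-type replicate 2 or 3 or PERK KO replicate 1 or 3 was left out (adjusted p from 0.0653 to 0.12).

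In PERK KO the HSP70 genes and DNAJB1 had their highest mean at day 3. The HSPA1A and HSPA1B sum lay at 106, 118 and 100 CPM at day 2, at 267, 285 and 288 CPM at day 3 and at 90.2, 96.0 and 92.8 CPM at day 5. HSPA8 lay at 1375, 1283 and 1381 CPM at day 2, at 2279, 2327 and 2373 CPM at day 3 and at 1213, 1219 and 1257 CPM at day 5. DNAJB1, the J-domain partner, went from 61.7, 71.3 and 61.8 CPM to 103, 110 and 116 CPM and back to 54.7, 59.0 and 61.2 CPM. For these genes the 3 day 3 libraries lay above all 6 libraries of the neighbouring days, and neighbouring days were compared by their values alone. Against day 0 the sum rose by 1.94 ± 0.40 at day 3 (edgeR adjusted p = 2.34e-04) and was not called at day 5 (0.35 ± 0.39, adjusted p = 0.47). In wild type the sum at day 3 was 167, 209 and 237 CPM, within 0.11 ± 0.38 of day 0 on the log2 scale (adjusted p = 0.833). The interaction at day 3 was 1.83 ± 0.55 for the sum (adjusted p = 0.00806) and 2.49 ± 0.59 for HSPA1B alone (adjusted p = 0.00104). HSPA6, a strictly inducible HSP70, had no count in the 3 PERK KO day 3 libraries, and a count of 0 allows up to 0.133 to 0.167 CPM at the depths of these libraries (3 counts, counting error only).

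In wild type the HSPA1A and HSPA1B sum reached 544, 2638 and 285 CPM at day 10, and replicate 2 dominated. Its excess over the higher of the other libraries was compared for 15895 genes of at least 1 CPM. The genes with the largest excess were HSPA6 (2.75 on the log2(CPM + 1) scale), TBC1D3C (2.45), HSPA1B (2.35) and HSPA1A (2.10), and DNAJB1 ranked 9 (1.30). HSPA6 held 4.12, 33.5 and 0.95 CPM in those libraries, and its highest value in the other groups was 0.12 CPM. The immediate-early genes JUN, NR4A1, DUSP1 and FOS were also among the 15 with the largest excess (1.27 to 1.61). HSPH1 (0.10), HSPD1 (-0.05), HSPE1 (-0.06) and HSF1 (-0.16) showed little or no excess there. With all libraries the sum rose by 2.61 ± 0.41 from day 0 to day 10 in wild type (edgeR adjusted p = 1.44e-06), and without replicate 2 by 1.11 ± 0.20 (adjusted p = 2.04e-05). The difference between the genotypes at day 10 was -2.39 ± 0.40 with it (adjusted p = 5.85e-06) and -0.89 ± 0.20 without it (adjusted p = 3.85e-04). The call and direction held, and the size depended on that library. In PERK KO, where the day 10 libraries lay at 234, 234 and 194 CPM, the sum rose by 1.60 ± 0.39 since day 0 (adjusted p = 8.53e-04).

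**Figure D3:**
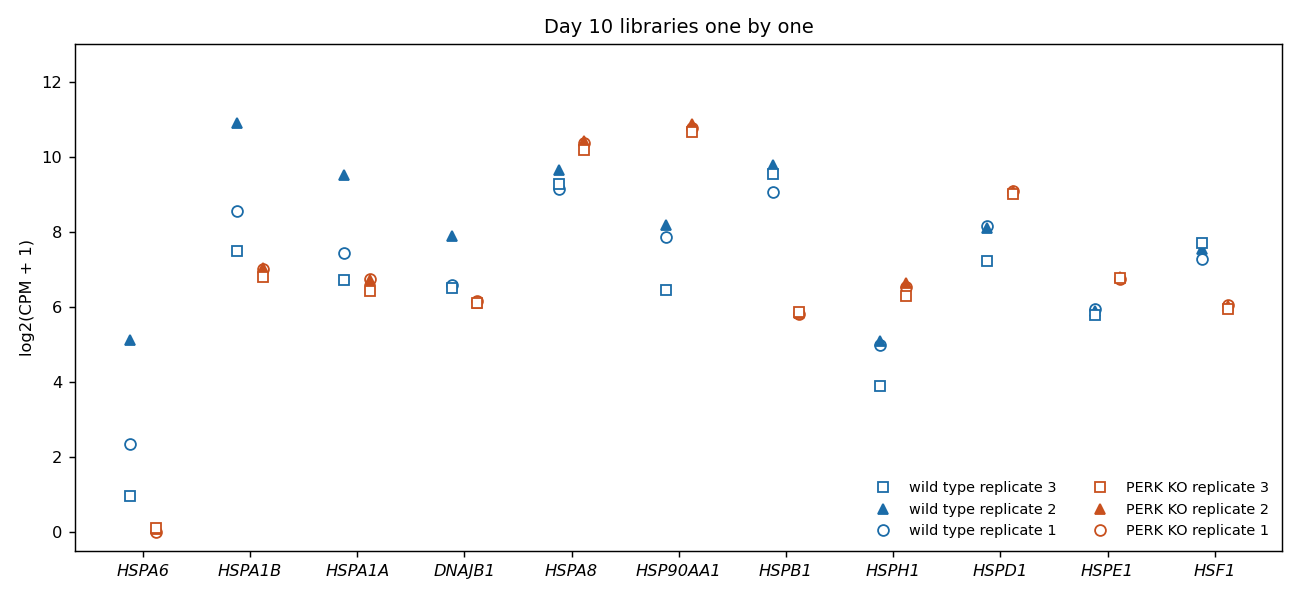
Log2(CPM + 1) (vertical axis) of HSPA6 and the 10 members (horizontal axis) in each day 10 library, with wild type in blue, PERK KO in orange and replicate 2 as filled triangles. Wild-type replicate 2 lies 2.10 to 2.75 above the next wild-type library for HSPA6, HSPA1B and HSPA1A, and -0.16 to 0.10 from the higher of the other wild-type libraries for HSPH1, HSPD1, HSPE1 and HSF1.

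DNAJB1 (ENSG00000132002.7, GRCh38 chromosome 19, 14514770 to 14529770, minus strand) lay at 57.7, 74.3 and 74.8 CPM at day 0 and at 94.9, 235 and 90.0 CPM at day 10 in wild type. The same days gave 56.6, 91.3 and 65.2 CPM and 70.1, 67.6 and 68.3 CPM in PERK KO. The genotypes overlapped at day 0, and at day 10 all wild-type libraries were the higher. DNAJB1 rose by 1.02 ± 0.23 in wild type by day 10 (edgeR adjusted p = 2.32e-04), and by 0.40 without replicate 2. The interaction at day 10 was -1.07 ± 0.32 (adjusted p = 0.00569) and was no longer called without that library (-0.40, adjusted p = 0.106) or with the GC offset (-0.59, adjusted p = 0.0799). Its gene overlaps TECR on the opposite strand, with a mean of 1878 counts for TECR and 1482 for DNAJB1.

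HSPH1 (ENSG00000120694.19, GRCh38 chromosome 13, 31134974 to 31162388, minus strand), the HSP110 exchange factor, ended lower in wild type than it began, and its change in PERK KO depended on the GC offset. In wild type its libraries lay at 92.4, 85.5 and 96.0 CPM at day 0, at 65.7, 68.1 and 21.8 CPM at day 2 and at 30.7, 32.9 and 14.0 CPM at day 10. In PERK KO they lay at 127, 73.1 and 114 CPM at day 0 and at 90.9, 98.4 and 77.2 CPM at day 10. The fall by day 10 was 1.82 ± 0.33 in wild type (edgeR adjusted p = 1.80e-05), while PERK KO gave -0.24, which was not called. The interaction was 1.51 ± 0.46 at day 5 (adjusted p = 0.00705) and 1.58 ± 0.46 at day 10 (adjusted p = 0.00435). With the GC offset the changes by day 10 were -1.13 in wild type and -0.68 in PERK KO, both called lower (adjusted p = 9.38e-08 and 1.77e-04). The interaction was then 0.67 at day 5 (adjusted p = 0.00737) and 0.45 at day 10 (adjusted p = 0.0661), so the day 10 call was lost.

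HSP90AA1 (ENSG00000080824.18, GRCh38 chromosome 14, 102080738 to 102139699, minus strand) encodes the inducible cytosolic HSP90 and showed the widest gap among the members that were higher in PERK KO. Wild-type libraries held 1638, 1419 and 1336 CPM at day 0, 664, 793 and 197 CPM at day 2, 904, 504 and 222 CPM at day 3 and 233, 291 and 86.3 CPM at day 10. The low library at days 2, 3 and 10 was replicate 3 each time, and these libraries had a mean transcript GC content of 53.4%, 53.0% and 53.8%, the highest of their groups. PERK KO libraries held 2043, 2586 and 1747 CPM at day 0, 982, 777 and 656 CPM at day 3 and 1730, 1869 and 1609 CPM at day 10. HSP90AA1 thus fell by 1.40 ± 0.38 in PERK KO by day 3 (edgeR adjusted p = 0.00395) and was near its starting level at day 10 (-0.29, not called). In wild type it fell by 1.43 ± 0.38 by day 3 and 2.85 ± 0.40 by day 10 (adjusted p = 2.75e-07). The interaction was 0.03 ± 0.53 at day 3, 1.96 ± 0.54 at day 5 (adjusted p = 0.00305) and 2.55 ± 0.54 at day 10 (adjusted p = 1.95e-04). The ratio of HSP90AA1 to HSP90AB1, the constitutive form, was 0.33 in wild type and 0.34 in PERK KO at day 0, and 0.12 and 0.50 at day 10 (ratios of TPM).

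HSPB1 (ENSG00000106211.8, GRCh38 chromosome 7, 76302544 to 76304295, plus strand), the small heat shock protein HSP27, had the largest difference of any member. In wild type it lay at 161, 159 and 163 CPM at day 0, at 314, 211 and 300 CPM at day 5 and at 535, 874 and 743 CPM at day 10. In PERK KO it lay at 122, 341 and 126 CPM at day 0, at 58.8, 62.8 and 59.4 CPM at day 5 and at 55.3, 56.6 and 57.0 CPM at day 10. At day 0 the genotypes overlapped, with the high PERK KO library the one that stood apart. At days 5 and 10 they were apart by a wide margin. HSPB1 rose by 0.77 ± 0.24 by day 5 (edgeR adjusted p = 0.00703) and 2.15 ± 0.25 by day 10 in wild type (adjusted p = 7.84e-09). In PERK KO it fell at every later day, by 1.66 ± 0.25 at day 1 and 1.80 ± 0.25 at day 10, and without the apart library by 0.99 and 1.13. The interaction reached -3.95 ± 0.36 at day 10 (adjusted p = 1.24e-10), and -3.27 without that library. Per length, HSPB1 passed HSPA8 in the wild type, at 1316 ± 159 against 593 ± 82.5 TPM at day 10 (SD, n = 3).

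HSPD1 (ENSG00000144381.16, GRCh38 chromosome 2, 197486581 to 197516737, minus strand) and HSPE1 (ENSG00000115541.10, 197499994 to 197503457, plus strand) encode the mitochondrial chaperonin and its lid and stand head to head. Their annotated spans overlap on opposite strands, so some reads could be counted for either. HSPD1 in wild type fell from 1018, 880 and 827 CPM at day 0 to 186, 214 and 254 CPM at day 5 and 283, 273 and 149 CPM at day 10. In PERK KO it went from 1582, 1587 and 1420 CPM to 760, 732 and 801 CPM and to 542, 538 and 513 CPM. At days 0, 2, 3, 5 and 10 all PERK KO libraries lay above all wild-type ones, and at day 1 they overlapped. The fall by day 10 was 1.95 ± 0.23 in wild type and 1.53 ± 0.23 in PERK KO, with an interaction of 0.42 ± 0.31 (edgeR adjusted p = 0.257). At day 5 the interaction was called, at 1.06 ± 0.31 (adjusted p = 0.00613).

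HSPE1 first rose in wild type, from 142, 133 and 120 CPM at day 0 to 252, 226 and 214 CPM at day 1, and ended at 60.7, 58.2 and 54.3 CPM at day 10. In PERK KO it lay at 233, 465 and 243 CPM at day 0, at 189, 191 and 205 CPM at day 1 and at 107, 110 and 108 CPM at day 10. The rise at day 1 in wild type was 0.81 ± 0.15 (edgeR adjusted p = 7.85e-05), and PERK KO fell by 0.68 ± 0.15, or by 0.28 without the apart library. The interaction at day 1 was -1.49 ± 0.22 (adjusted p = 8.14e-06), and -1.09 without that library. The ratio of HSPE1 to HSPD1 in TPM was 0.46 in wild type at day 0 (0.44 to 0.50) and 0.74 in PERK KO (0.62 to 0.92). It was 1.06 and 0.85 at day 1, and 1.04 (0.84 to 1.44) and 0.88 (0.86 to 0.89) at day 10. By this TPM ratio the lid transcript was lowest relative to the chamber in undifferentiated wild-type cells. The ratio depends on the effective lengths per library. HSPE1 held 132 CPM and 253 TPM in wild type at day 0, and 231 CPM and 682 TPM at day 1 (means of 3). At day 0 HSPE1 and HSPD1 held 132 and 908 CPM in wild type (means of 3). PERK KO replicate 1 held 233 and 1582 CPM and replicate 3 held 243 and 1420 CPM, for these libraries a smaller genotype gap than in TPM. PERK KO replicate 2, the apart library, held 465 and 1587 CPM, a wider gap from wild type than in replicates 1 and 3.

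Over time the members of the wild type changed as follows against day 0. At day 1, 2 were higher (HSPE1, HSPA8) and 3 lower (HSPB1, HSPA1A, HSF1), where 20.9% of all genes were higher and 23.7% lower. HSPA1A lost this call in 5 of 6 cases when 1 library was left out (edgeR adjusted p up to 0.0973), and HSPA8 lost it without replicate 1 of day 0 or of day 1 (0.36 in both, adjusted p = 0.105 and 0.108). With the GC offset HSPA1A (-0.60), HSPA8 (0.21) and HSF1 (-0.09) were not called at day 1. Without that offset the HSPA1A and HSPA1B sum was not called at day 1 (-0.89, edgeR adjusted p = 0.0616). At day 2 HSPA8 was higher and 3 were lower (HSP90AA1, HSPH1, HSPD1), with 25.3% and 25.1% of genes called. Without wild-type day 2 replicate 3, 1 member was called at that day. At day 3 HSPA8 was higher and HSPD1, HSP90AA1, HSPH1 and HSPE1 lower, with 29.3% and 27.5% of genes. Without wild-type day 3 replicate 3, HSF1 (-0.52, adjusted p = 0.00832) and HSPB1 (-0.65, adjusted p = 0.0487) were called lower as well. At day 5 HSPB1 was higher and the same 4 were lower, with 31.4% and 30.5% of genes. At day 10, 5 were higher (HSPA1B, HSPB1, HSPA1A, DNAJB1, HSF1) and 5 lower (HSP90AA1, HSPD1, HSPH1, HSPE1, HSPA8), with 34.9% and 34.3% of genes.

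In PERK KO, 1 member was higher (HSPA1B) and 4 lower (HSPB1, HSP90AA1, HSPE1, HSPD1) at day 1 against day 0, where 18% of genes were higher and 25.1% lower. At day 2 HSPA1B was higher and 5 were lower (HSPB1, HSP90AA1, HSPH1, HSPA8, HSPE1), with 17.5% and 23.8% of genes. The HSPA1A and HSPA1B sum was not called at day 1 (0.68, edgeR adjusted p = 0.156) or at day 2 (0.57, adjusted p = 0.245). Without PERK KO day 0 replicate 2 the calls at days 1 and 2 dropped to 2 and 3 members. At day 3, 3 were higher (HSPA1B, HSPA1A, DNAJB1) and 4 lower (HSP90AA1, HSPB1, HSPD1, HSPE1), with 18.5% and 21.8% of genes. At day 5 none was higher and 4 were lower (HSPB1, HSPD1, HSPA8, HSPE1), with 21.5% and 27.3% of genes. At day 10 HSPA1B and HSPA1A were higher and 5 lower (HSPB1, HSPE1, HSPD1, HSPA8, HSF1), with 29.9% and 31.9% of genes. The comparisons of each genotype share its day 0 libraries, so their values are given side by side and no overlap is drawn.

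The genotype-by-day interaction asks whether the change since day 0 differed between the genotypes. At day 1 it was called higher in PERK KO for HSPA1B and lower for HSPE1, where 10.2% of genes were called higher and 12.9% lower. At day 2 HSPA1B was higher and HSPA8, HSPB1 and HSPE1 lower, with 16.2% and 19.5% of genes. The interaction of the HSPA1A and HSPA1B sum was called at day 1 (1.57, edgeR adjusted p = 0.0361) but not at day 2 (0.94, adjusted p = 0.184). At day 3 HSPA1B was the single call, with 18% of genes higher and 20.9% lower, and HSF1 (0.59, adjusted p = 0.0303) was also called without wild-type day 3 replicate 3. At day 5 HSP90AA1, HSPH1 and HSPD1 were higher and HSPB1 and HSPA8 lower, with 23.2% and 27% of genes. At day 10 HSP90AA1 and HSPH1 were higher and HSPB1, DNAJB1 and HSF1 lower, with 26.3% and 29.4% of genes. Without PERK KO day 0 replicate 2 the interaction of HSPE1 at day 2 was no longer called (-0.27, edgeR adjusted p = 0.104), and those of HSPB1 and HSPA8 at day 2 were smaller, at -0.59 and -0.78.

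Ranked per length, the wild type at day 0 had HSPA8 at 734 ± 42.0 TPM, HSP90AA1 at 583 ± 64.2, HSPD1 at 545 ± 57.7, HSPB1 at 354 ± 46.4 and HSPE1 at 253 ± 19.5 (SD, n = 3). HSP90AA1 and HSPD1 did not differ beyond their spread. Below them came HSF1 at 94.4 ± 1.76 TPM, then HSPA1B, HSPA1A and DNAJB1 at 57.5 ± 14.9, 46.8 ± 6.61 and 45.3 ± 6.10, which overlapped, and HSPH1 at 34.4 ± 2.35. In the wild type at day 10 HSPB1 led with 1316 ± 159 TPM, and HSP90AA1 was down to 144 ± 114. In PERK KO at day 10 HSPA8 led with 1456 ± 103 TPM, ahead of HSP90AA1 at 895 ± 34.9 and HSPD1 at 414 ± 8.43, with HSPB1 at 175 ± 17.3. HSPA8 made up 22.45% of the summed TPM of the 7 cytosolic chaperones in wild type at day 10 and 52.5% in PERK KO.

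**Figure D4:**
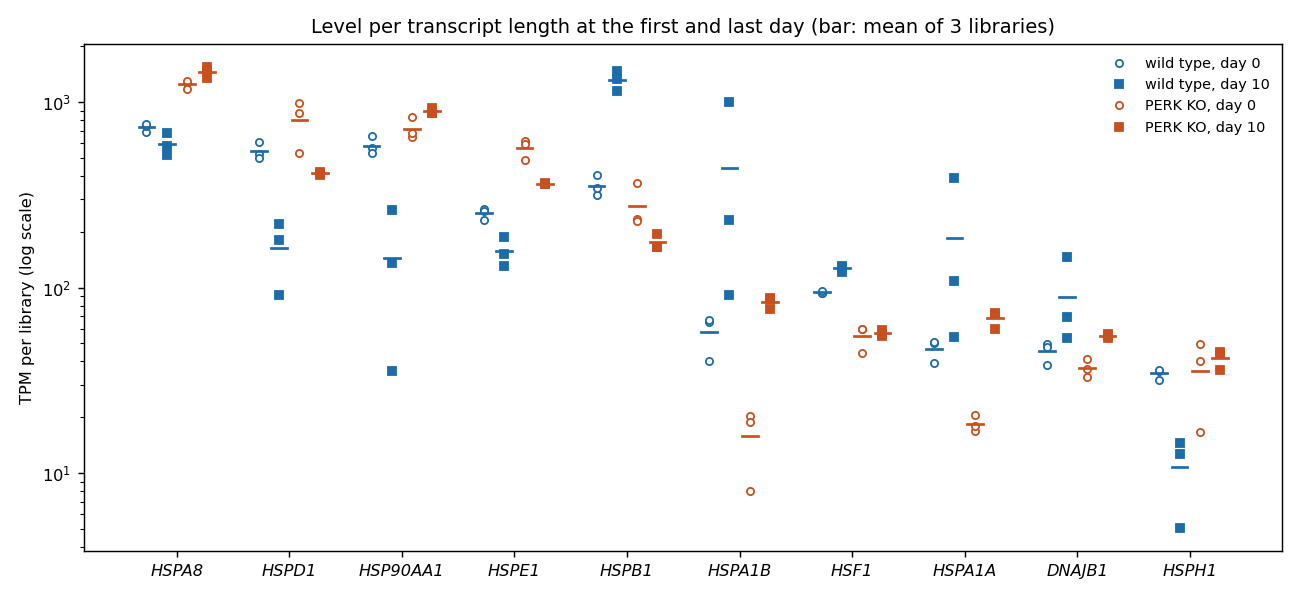
TPM per library (log scale, vertical axis) of the 10 members (horizontal axis) at day 0 (open circles) and day 10 (squares), with wild type in blue, PERK KO in orange and bars for the mean of 3 libraries. Wild-type day 10 places HSPB1 at the top (1316 TPM), whereas PERK KO day 10 places HSPA8 there (1456 TPM).

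The direction at day 10 ran along base composition. The 5 members lower in PERK KO had transcript GC contents of 55.2% (DNAJB1) to 63.9% (HSF1), and the 5 that were higher had 39.3% (HSPH1) to 46.6% (HSPE1). The libraries also differed in mean GC content of their counts, at 52.1%, 52.8% and 53.8% in wild type at day 10 against 50.0%, 50.1% and 50.0% in PERK KO. With a GC offset per library, an alternative added after the data were seen, all 10 members were still called in the same direction at day 10. HSPB1 was then at -2.93, HSP90AA1 at 2.85, HSF1 at -0.78, HSPH1 at 0.70, HSPA1A at -1.17 and DNAJB1 at -0.57. The log2 changes of HSF1, HSPH1, HSPA1A and DNAJB1 thus shrank by more than 1.5 times, and that of HSP90AA1 stayed near its size. At day 5 the offset left 6 of 9 calls: HSF1 (0.05), HSPA1B (-0.51) and DNAJB1 (-0.33) were lost.

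**Figure D5:**
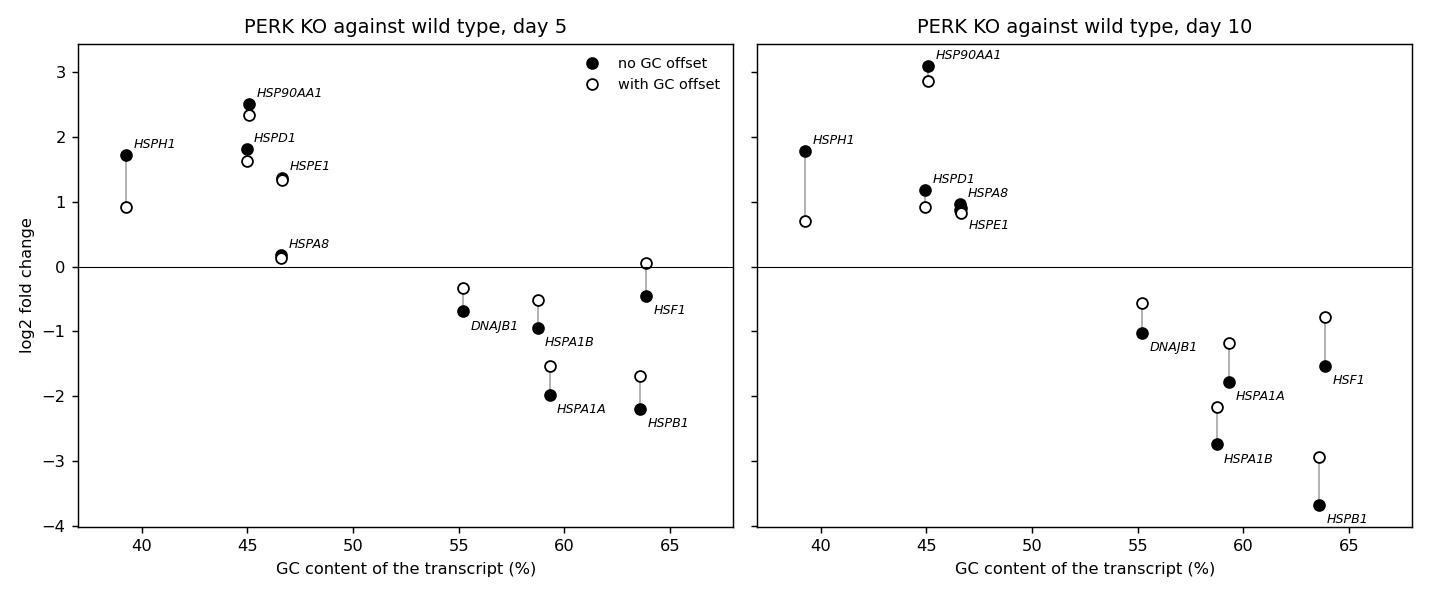
Log2 fold change of PERK KO against wild type (vertical axis) against transcript GC content in percent (horizontal axis) for the 10 members at days 5 and 10. Filled points come from the fit without a GC offset and open points from the fit with it, joined per gene. HSP90AA1 stays near 3 at day 10 (3.09 and 2.85), while HSPH1 goes from 1.78 to 0.70 and HSF1 from -1.53 to -0.78.

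The wider chaperone network was counted in lists of known genes, whose counts stand beside the shares of all genes called: 34.9% higher and 34.3% lower in wild type at day 10 against day 0, 29.9% and 31.9% in PERK KO, and 33.2% and 34% in PERK KO against wild type at day 10. Of 6 tested other small heat shock proteins, 4 were higher and none lower in wild type at day 10 against day 0 (median log2 fold change 2.66), and 4 were lower and none higher in PERK KO against wild type at day 10 (median -3.26). HSPB7, a cardiac member, lay at 0.46, 0.52 and 0.42 CPM at day 0 and at 1403, 1600 and 2079 CPM at day 10 in wild type, against 18.1, 4.20 and 20.2 CPM in PERK KO. HSPB8, the partner of BAG3, lay at 76.5, 105 and 97.6 CPM in wild type at day 10 and at 6.45, 6.01 and 6.25 CPM in PERK KO. BAG3, a co-chaperone that links HSP70 and HSPB8 to autophagy, was lower in PERK KO at each day from 1 to 10, most at day 5 (-3.04 ± 0.18, edgeR adjusted p = 4.26e-15), where the libraries lay at 103, 93.9 and 85.6 CPM in wild type and 12.8, 10.0 and 11.6 CPM in PERK KO. The cardiomyocyte markers moved in the same directions. The 8 cardiomyocyte markers summed to 13220 to 17370 CPM in wild type at day 10 and 111 to 423 CPM in PERK KO, and their part in these differences was not tested.

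The TRiC chaperonin, which folds actin and tubulin, is the cytosolic counterpart of the HSPD1 chamber, and prefoldin, a partner complex, was counted with it. Of 14 subunits, 11 were lower and 1 higher in wild type at day 10 against day 0 (median -0.78), 10 were lower and none higher in PERK KO (median -1.15), and 6 were higher and none lower in PERK KO against wild type at day 10, where 33.2% of all genes were higher and 34% lower. CCT5 had 118, 132 and 119 CPM in wild type at day 10 and 254, 272 and 247 CPM in PERK KO, a log2 fold change of 1.07 ± 0.11 (edgeR adjusted p = 6.6e-10). Of 14 other mitochondrial chaperones and proteases, 9 were higher and 1 lower in PERK KO at day 3 (21.9% and 23.2% of all genes), and 3 were higher and 7 lower at day 10. HSPA9, the mitochondrial HSP70, was higher by 1.36 ± 0.11 at day 5, with 151, 187 and 193 CPM in wild type and 447, 455 and 462 CPM in PERK KO. TIMM44, which tethers HSPA9 to the import channel, and DNAJA3, a J-domain protein of the matrix, were lower at day 10, by 1.48 ± 0.16 and 1.23 ± 0.14.

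Of 12 genes of the HSP90 system, 6 were higher and 2 lower in PERK KO at day 10, where 33.2% and 34% of all genes were called. UNC45B, the myosin chaperone of striated muscle, lay at 234, 208 and 250 CPM in wild type at day 5 and at 0.46, 0.16 and 0.31 CPM in PERK KO. PTGES3, the co-chaperone p23, was higher in PERK KO at day 0 by 0.91 ± 0.11. Of 8 tested other HSP70 and HSP110 genes, 3 were higher and 1 lower at day 10. HSPA4, an HSP110 relative of HSPH1, fell in wild type by day 10 from 504, 533 and 512 CPM to 99.8, 78.2 and 49.6 CPM, by 2.77 ± 0.25 on the log2 scale. Of 10 J-domain proteins, 6 were higher and 2 lower in PERK KO at day 3 (21.9% and 23.2% of all genes), and 2 were higher and 5 lower at day 10. DNAJB6 was higher in PERK KO by 1.75 ± 0.09 at day 3, where the libraries lay at 130, 136 and 146 CPM in wild type and 443, 477 and 461 CPM in PERK KO. DNAJB2, another J-domain protein, was lower by 2.21 ± 0.17 at day 10. Of 8 HSP70 cofactors 3 were higher and 3 lower at day 10, and BAG1 was lower by 1.97 ± 0.25. Of 3 heat shock factors and binding proteins, HSF4 was lower at day 10 at 2.20, 2.09 and 1.96 CPM in wild type against 0.68, 0.31 and 0.34 CPM in PERK KO.

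Of 10 ER chaperones, 4 were higher and none lower in PERK KO at day 0, where 12.5% and 8.64% of all genes were called. At day 2 none was higher and 6 were lower, where 20.9% and 21.8% of all genes were called. At day 10, 3 were higher and 4 lower (median -0.28), near the 33.2% and 34% of all genes. HSPA5 (BiP), the HSP70 of the ER, was higher in PERK KO at day 0 by 0.96 ± 0.19 (edgeR adjusted p = 3.72e-04), as HSPA8 was, and lower at each later day, by 0.72 ± 0.18 at day 10, where HSPA8 was higher. Its day 10 libraries lay at 543, 943 and 444 CPM in wild type and 391, 422 and 357 CPM in PERK KO. Without wild-type day 10 replicate 2 the day 10 call was lost (-0.31, adjusted p = 0.0651), and without PERK KO day 0 replicate 2 the day 0 difference was 0.66 (adjusted p = 0.00504). HSP90B1, the HSP90 of the ER, was higher in PERK KO by 1.74 ± 0.26 at day 10 (adjusted p = 8.33e-07), as HSP90AA1 was. It lay at 325, 313 and 149 CPM in wild type and at 840, 930 and 856 CPM in PERK KO.

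The genes most like 3 of the members and the HSP70 sum were read from 12 group means of log2(CPM + 1), over 10721 genes with a mean of at least 10 CPM. The points share libraries within a group, and the values are descriptions. HSPD1 was most like CCDC43 (r = 0.98), NUDCD1 (0.98) and COX16 (0.97). HSPB1 was most like JMJD6 (0.97), AK1 (0.97) and ETFB (0.96). HSPA8 had weaker matches in HMGN4 (0.91), TTI1 (0.90) and RPA1 (0.89), and the HSPA1A and HSPA1B sum in SLC22A18 (0.94), LRP5 (0.93) and TMEM25 (0.93). Among the members themselves HSPD1 and HSPE1 had r = 0.94, HSP90AA1 and HSPH1 0.91, and HSF1 and HSPB1 0.87, while HSPA1A and HSPE1 ran in opposite directions (-0.87).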

How the data were processed

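The 36 libraries were made with an mRNA-seq kit, per the labels, 3 for each of 12 groups. The submitters' processing notes name CASAVA, FastQC, STAR and RSEM as tools and GRCh38 as the genome build. Their versions, and whether strand was used, were not found in the labels. The deposited count table holds RSEM expected counts per gene, equal to the sample files, and 6.53% to 9.43% of values per library were not whole. The authors' TPM and effective lengths (nucleotides, from RSEM) come from the deposited sample files; TPM was used for levels between genes. Gene identifiers match GENCODE release 29.

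Expected counts were rounded, reduced by filterByExpr to 19772 genes, normalised by TMM and then fitted as 12 groups with 24 residual degrees of freedom in edgeR 4.0.16 (limma 3.58.1, R 4.3.3) with the quasi-likelihood F test. The biological coefficient of variation was 18.7%. Benjamini-Hochberg adjustment ran over all tested genes in each of 21 comparisons. The SE is approximate, the log2 fold change over the root of F. CPM are TMM-scaled. The code was tested on simulated data. Replicate numbers were tested as pairs: deviations of same-numbered libraries correlated between -0.27 and 0.59. The highest values were at day 3 (0.59 for replicate 1 and 0.53 for replicate 3). Libraries were treated as unpaired because nothing says that the numbers pair libraries, and a replicate block was run as an alternative. Promoter windows come from RefSeq. Members and gene lists were chosen with earlier results of these data known. Named genes are the 10 members, the 3 genes of each list with the smallest p in PERK KO against wild type or wild type against day 0, HSPA5, HSP90B1 and the 3 genes most like HSPD1, HSPB1, HSPA8 or the HSPA1A and HSPA1B sum. Further genes named for wild-type day 10 replicate 2 were chosen after their values were seen. HSPA14 (2 rows in the table) and CRYAA and HSPB3 (low counts) were not tested. Alternatives were RLE scaling, other filters, DESeq2 1.42.0, fits of the compared groups alone, a replicate block, length and GC offsets, summed copies and leaving out libraries; the GC offset and the leaving out of libraries for HSPA5 were added after the data were seen. Tables and figures came from Python 3.11.15 with matplotlib 3.10.9, numpy 2.4.6 and pandas 2.3.3.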

Additional observations from a re-analysis of the deposited data

Results flagged for a closer look

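These results stand out because the change since day 0 differed between the genotypes by a test of the difference itself, the genotype-by-day interaction in edgeR (adjusted p under 0.05). Values are log2 differences, positive where the change was more upward in PERK KO. HSPA1B stood at 2.00 at day 1, 1.99 at day 2 and 2.49 at day 3. The split of reads between HSPA1A and HSPA1B is uncertain. Their sum stood at 1.57 at day 1 (edgeR adjusted p = 0.0361) and 1.83 at day 3 (adjusted p = 0.00806). At day 2 the sum stood at 0.94 and was not called (adjusted p = 0.184). HSPE1 stood at -1.49 at day 1 and -0.69 at day 2. HSPA8 stood at -1.11 at day 2 and -0.83 at day 5. HSPB1 stood at -1.28 at day 2, -2.47 at day 5 and -3.95 at day 10. HSP90AA1 stood at 1.96 at day 5 and 2.55 at day 10, and HSPH1 at 1.51 and 1.58. With the GC offset HSPH1 was at 0.67 at day 5, still called, and at 0.45 at day 10, no longer called (adjusted p = 0.0661). HSPD1 stood at 1.06 at day 5, and HSF1 and DNAJB1 at -1.04 and -1.07 at day 10. DNAJB1 was not called with the GC offset (-0.59, adjusted p = 0.0799).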

How the results depend on the processing

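Of the 210 member values (10 members in 21 comparisons), 209 kept direction and side of the threshold with RLE scaling and with DESeq2, and 207 with the replicate block. Counts of called members moved by no more than 1.5 times with RLE scaling, DESeq2, the stricter filter, the summed copies and the replicate block, which gave 6 instead of 5 members at day 2 for PERK KO against wild type. The block changed no count by more, and same-numbered libraries did not deviate together throughout. Fits of only the groups compared gave, for PERK KO against wild type, 1 instead of 6 at day 0 and 6 instead of 1 at day 1. They gave 8 instead of 5 for wild type at days 1 and 5, 4 instead of 7 for PERK KO at day 3, and 5, 2, 2 and 8 instead of 2, 4, 1 and 5 for the interactions at days 1, 2, 3 and 5. The GC offset gave 2 instead of 1 for PERK KO against wild type at day 1, 2 instead of 5 for wild type at day 1, and 4, 4 and 3 instead of 2, 1 and 5 for the interactions at days 1, 3 and 10. Leaving out both apart libraries gave 3 instead of 1 at day 1 for PERK KO against wild type and 4, 2 and 4 instead of 2, 4 and 1 for the interactions at days 1, 2 and 3. The interaction at day 3 also gave 3 with the effective length offset and 2 with no filter. Leaving out 1 library gave 3 to 6 and 0 to 1 for PERK KO against wild type at days 0 and 1, 3 to 4 and 1 to 4 for wild type at days 1 and 2, 2 to 5 for PERK KO at days 1 and 2, and 2 to 4 and 1 to 3 for the interactions at days 1 and 3. Reversed values, in PERK KO against wild type with the GC offset, were HSPH1 at day 2 (-0.58) and HSF1 at day 5 (0.054). With the effective length offset they were HSPA8 at day 1 (0.31) and HSPE1 at day 2 (0.0105) in PERK KO against day 0. In the interactions, HSPE1 at day 3 turned to 0.31 without both apart libraries and 0.32 without PERK KO day 0 replicate 2 (range over single libraries left out -0.23 to 0.32), and HSPA1A at day 10 to 0.65 without wild-type day 10 replicate 2 (range -1.07 to 0.65). The cause of these moves was not tested.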

Other observations

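The summed level of the 9 chaperone members, HSF1 left out, is given here. In wild type the day 0 libraries averaged 2653 ± 109 TPM (SD, n = 3). The highest wild-type mean was 3580 ± 233 TPM on day 1, the lowest 2149 ± 105 TPM on day 5, and the day 10 mean was 3100 ± 1052 TPM. In PERK KO it averaged 3717 ± 390 TPM at day 0, 3420 ± 83.5 at day 5 and 3552 ± 170 at day 10. Its highest PERK KO mean was 4036 ± 31.3 TPM at day 1 and its lowest 3214 ± 153 TPM at day 2. HSPD1 and HSPE1 together held 797 ± 74.1 TPM in wild type and 1364 ± 305 in PERK KO at day 0, and 321 ± 92.5 and 777 ± 9.02 at day 10.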
